A study of Mus musculus with 22 samples.

Results

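The neutrophil genes followed here in mouse liver were picked by symbol: Mpo, Elane, Ngp, Camp, Ltf, S100a8, S100a9, Retnlg, Cxcr2 and Csf3r. All 10 were found among the 47729 genes counted. Poly(A) RNA was sequenced from whole livers of male C57BL/6 mice that were wild type (WT) or Slc10a1-/- (KO). Slc10a1 encodes NTCP, the transporter that takes conjugated bile acids from blood into hepatocytes. The 6 groups were WT and KO at 4 weeks (3 and 3 libraries), 8 weeks (4 and 6) and 20 months (3 and 3), 22 libraries in all, with no treatment named. Litter and cage are not in the labels, so p-values measure only the spread between these samples.

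Neutrophils are short-lived white cells made in bone marrow. Their genes are switched on in stages: proteins of the primary (azurophil) granules are transcribed in promyelocytes, those of the secondary granules in myelocytes and metamyelocytes, and chemokine and cytokine receptors mostly in later cells. S100a8 and S100a9 lie beside each other on chromosome 3 (GRCm38, 90668978-90670035 and 90692632-90695721), and Camp, Ngp and Ltf lie on chromosome 9 (starts at 109847379, 110419747 and 111019271). A liver normally holds few such cells, mainly in its blood vessels, and their number grows in inflammation. In a bulk library, fewer cells of a type and less RNA per cell cannot be told apart.

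Library totals were 5496425 to 6956124 gene counts at 4 weeks and 18032355 to 26789350 later. File names mark only the 4-week set as paired-end, so age and library layout cannot be told apart. A count of 0 allows up to 3 counts, which is 0.478 to 0.640 CPM (counts scaled to library size after TMM normalization) at 4 weeks and 0.103 to 0.167 CPM later, for counting error only. Slc10a1 separated the genotypes at each age, with 92.3 to 103 CPM in KO against 154.5 to 370 CPM in WT at 20 months. WT libraries 1 and 2 of 20 months stood apart from the other 20 in the neutrophil genes, so their values are given singly. Tests of the members that rest on these 2 libraries are given without them too. The labels say nothing on the health of these mice, so whether the mice of those 2 libraries were ill is not known and was not tested. The members took 0.42% of all counts in WT library 1 and 0.0495% in WT library 2 of that age, against 0.000295% to 0.00268% in the other 20.

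The promoters of 4 members, of a secondary granule gene, a calprotectin subunit, a mature neutrophil marker and a receptor, are shown because these genes were high together in the same 2 libraries. They are the members whose window reaches at most 30 bases into the Ensembl gene. Each is the 250 bases before the RefSeq start, build GRCm38.p6, written 5′ to 3′ on the strand of the gene. Capitals mark matches on either strand to TTNNGNAA (a C/EBP-type motif), GAGGAA (a PU.1-type motif) or TGTGGT (a RUNX-type motif).
Ltf (chr9:111019042-111019291, plus strand): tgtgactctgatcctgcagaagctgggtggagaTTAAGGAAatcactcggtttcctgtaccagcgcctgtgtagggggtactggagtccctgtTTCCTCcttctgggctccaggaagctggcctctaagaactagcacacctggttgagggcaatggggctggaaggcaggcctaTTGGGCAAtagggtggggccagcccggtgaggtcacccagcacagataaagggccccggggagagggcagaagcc
S100a9 (chr3:90695722-90695971, minus strand): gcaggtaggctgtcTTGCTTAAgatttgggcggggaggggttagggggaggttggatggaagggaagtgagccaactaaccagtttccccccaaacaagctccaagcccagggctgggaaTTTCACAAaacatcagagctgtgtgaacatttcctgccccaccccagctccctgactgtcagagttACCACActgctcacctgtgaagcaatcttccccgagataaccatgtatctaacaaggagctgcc
Retnlg (chr16:48872358-48872607, plus strand): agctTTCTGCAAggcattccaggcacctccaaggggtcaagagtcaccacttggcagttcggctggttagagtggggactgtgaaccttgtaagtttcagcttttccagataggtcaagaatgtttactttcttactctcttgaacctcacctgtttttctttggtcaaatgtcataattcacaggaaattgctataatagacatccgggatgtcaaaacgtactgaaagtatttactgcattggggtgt
Cxcr2 (chr1:74153744-74153993, plus strand): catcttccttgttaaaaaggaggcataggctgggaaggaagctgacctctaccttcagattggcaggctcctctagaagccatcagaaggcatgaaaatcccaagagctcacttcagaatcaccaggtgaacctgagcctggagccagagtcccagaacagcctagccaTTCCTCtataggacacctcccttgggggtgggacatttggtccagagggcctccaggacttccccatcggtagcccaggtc
The C/EBP-type letters were found in the windows of 5 of the 10 members and in 36.8% of 32817 windows of the same length. These counts include the windows of the members not shown, which reach 61 (Ngp) to 203 (Mpo) bases into the Ensembl gene. The PU.1-type letters were found in 6 of 10 and in 23.3% of all windows, and the RUNX-type letters in 1 of 10 and in 14.0%. Mpo and Elane, the primary granule genes, held only PU.1-type matches, 2 and 1. Ngp held only C/EBP-type matches, 3 of them. No matches of different motifs overlapped in the 4 sequences shown, and a match is a description of letters, not of binding.

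Mpo encodes myeloperoxidase and Elane neutrophil elastase, both proteins of the primary granules. Mpo was at 263, 42.3 and 0.333 CPM in WT libraries 1, 2 and 3 of 20 months and at 1.95, 0.626 and 0.340 in the KO libraries. Elane was at 95.2, 22.6 and 0.389 CPM in those WT libraries and at 0.651, 0.0894 and 0.212 in the KO libraries. WT libraries 1 and 2 were far above the rest, and WT library 3 lay below all KO libraries for Mpo and among them for Elane, so the groups overlapped.
At 4 weeks Elane had 0 counts in all 6 libraries, and Mpo had 1 count in all, in WT library 2. At 8 weeks Mpo was at 0.480, 0.0496, 0.199 and 0.0396 CPM in WT, and ranged from 0 through a median of 0.0742 to 0.296 CPM in KO. Most of these values lie near the level of a few counts, and the groups overlapped.

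Ngp (neutrophilic granule protein), Camp (the cathelicidin precursor) and Ltf (lactoferrin, which binds iron) are products of the secondary granules. Ngp was at 755, 124 and 0.833 CPM in the 20-month WT libraries and at 4.47, 1.12 and 1.06 in KO. Camp was at 172, 21.9 and 0.278 CPM in WT and at 0.738, 0.268 and 0.212 in KO. Ltf was at 420.5, 60.7 and 0.444 CPM in WT and at 1.74, 0.581 and 0.594 in KO. All 3 genes had the order WT library 1, WT library 2, KO library 1, with the remaining libraries close to each other.
Among younger livers, Ngp was at 0.745, 1.40 and 2.55 CPM in 4-week WT and at 0.672, 0.603 and 0 in 4-week KO. These groups did not overlap, as was so in this direction for 19.8% of the genes tested at that age, but the counts were 4, 8 and 16 against 4, 3 and 0 and Ngp did not pass the filter on low counts. Ltf in 4-week WT ranged from 0 to 2.23 CPM and in 4-week KO from 0 to 0.427 CPM, with overlap. Camp had at most 1 count in any 4-week library and at most 8 in any 8-week library.

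S100a8 and S100a9 encode the 2 subunits of calprotectin, an abundant cytosolic protein of mature neutrophils. S100a9 was at 1709, 166 and 4.11 CPM in the 20-month WT libraries and at 6.38, 3.40 and 3.95 in KO. S100a8 was at 386, 31.4 and 0.778 CPM in WT and at 1.91, 1.25 and 1.02 in KO. WT library 3 lay among the KO libraries for S100a9 and below them for S100a8.
At 4 weeks S100a9 and S100a8 had the most counts of the members, 93 and 58 in WT and 140 and 67 in KO. At 8 weeks Csf3r had more than either, 285 counts in WT and 392 in KO against 191 and 389 for S100a9. S100a9 was at 2.05, 5.27 and 8.28 CPM in 4-week WT and at 4.37, 9.86 and 13.9 in 4-week KO. At 8 weeks it was at 2.57, 1.09, 0.597 and 3.25 CPM in WT, and in KO ran from 0.470 through a median of 2.54 to 5.62. S100a8 was at 2.05, 3.16 and 4.62 CPM in 4-week WT and at 1.68, 1.04, 0.149 and 1.86 in 8-week WT. The lowest S100a8 value of 4-week WT was thus just above the highest of 8-week WT. The same was so in this direction for 25.4% of the genes tested between these groups, and S100a8 did not pass (edgeR adjusted p = 0.0614).

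Retnlg (resistin-like gamma) marks mature neutrophils. It was at 70.6, 9.96 and 0.333 CPM in the 20-month WT libraries and at 0.477, 0.223 and 0.722 in KO. Among the 6 KO libraries of 8 weeks it ran from 0.0838 through a median of 0.438 to 1.52 CPM, with libraries 1, 2 and 6 at 1.52, 1.40 and 0.748 and the other 3 at or below 0.128. The same 3 libraries had the highest summed erythroid markers of that group, 495, 638 and 542 CPM against 158 to 223 CPM. The part of blood in the Retnlg levels was not tested.

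Cxcr2 is the receptor for neutrophil-attracting chemokines and Csf3r the receptor for G-CSF, the cytokine that drives neutrophil production. Cxcr2 was at 9.68, 1.91 and 0.111 CPM in the 20-month WT libraries and at 0.434, 0.313 and 0.552 in KO. Csf3r was at 22.2, 6.76 and 1.89 CPM in WT and at 4.21, 1.83 and 2.08 in KO. Of the 10 members Csf3r had the smallest gap between WT library 1 and the highest of the other 20 libraries, 4.88-fold, and Camp the widest, 234-fold.
Csf3r was at 0.840 CPM or more in all 22 libraries, and its means in the 5 groups other than 20-month WT lay between 1.46 and 2.83 CPM. Cxcr2 had 1 count in all in the 3 WT libraries of 4 weeks and 3, 5 and 1 counts in the KO libraries of that age, and did not pass the filter on low counts. The CPM of these groups did not overlap (15.8% of the genes tested at that age were apart in this direction), but the highest WT library (0.159 CPM) and the lowest KO library (0.214 CPM) had 1 count each.

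**Figure D1:**
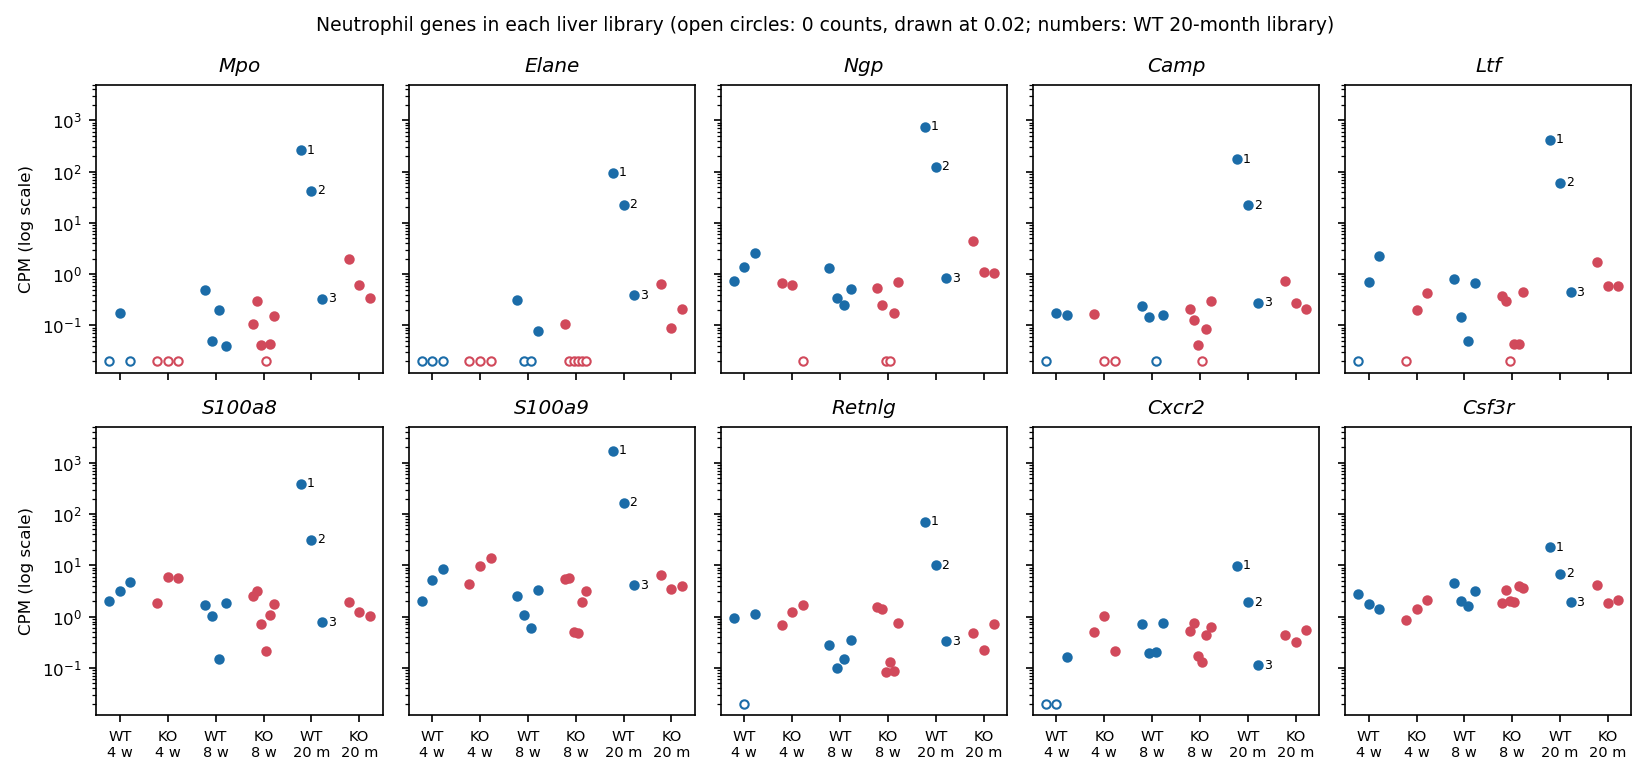
CPM (log axis) of each of the 10 neutrophil genes in each of the 22 libraries, by group, with WT in blue and KO in red; open circles are libraries with 0 counts, and the numbers mark the 20-month WT libraries. WT libraries 1 and 2 of 20 months are the 2 highest of the 22 points for every gene, while WT library 3 sits with the KO libraries.

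Read per length of exon, S100a9 was the highest member in all 6 libraries of 20 months, from 6.51 CPM per kb in KO library 2 to 3274 in WT library 1. In WT library 1 it was followed by Ngp (618 CPM per kb), S100a8 (556), Camp (227), Ltf (122), Retnlg (119), Elane (96.8), Mpo (76.9), Csf3r (6.16) and Cxcr2 (3.18). In WT library 3 the order opened with S100a9 (7.88 CPM per kb) and S100a8 (1.12), followed by Ngp (0.682). In the 3 WT libraries of 20 months the SD of the CPM exceeded the mean for each of the 10 members. S100a9 was above Ngp in all 3 of them, while Ngp was above S100a8 in WT libraries 1 and 2 and below it in WT library 3. The profile of levels per length shows 2 raised lines of similar shape above 4 lower ones.

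**Figure D2:**
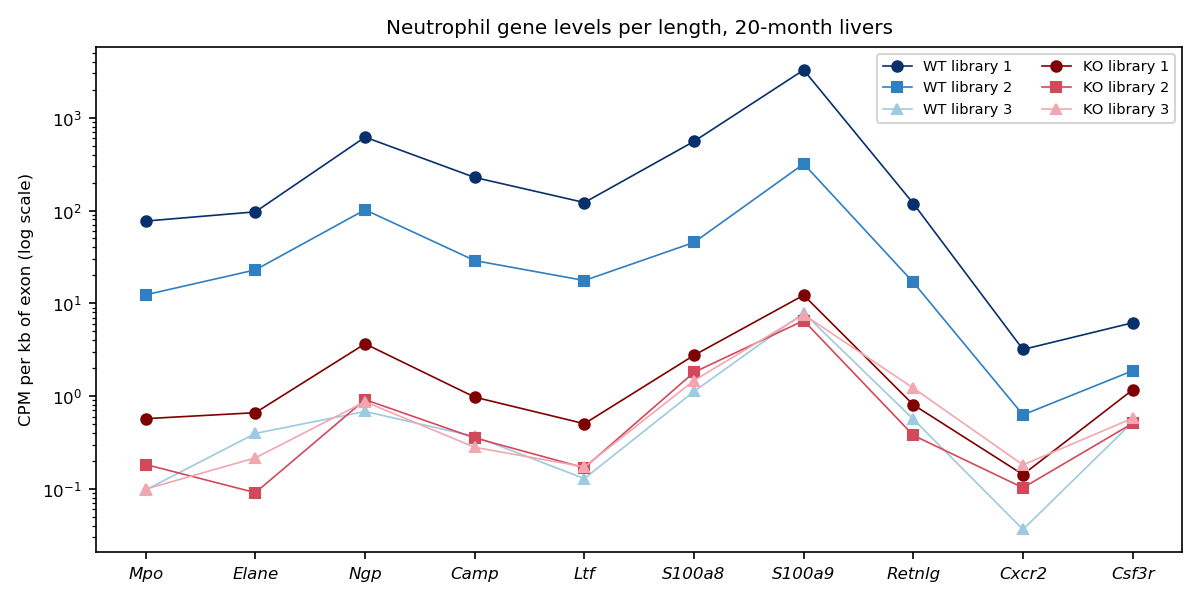
CPM per kb of exon (log axis) of the 10 members in each of the 6 libraries of 20 months; each line is 1 library. WT libraries 1 and 2 lie above the other 4 at every gene, and S100a9 is the highest point of every line.

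The ratio of WT library 1 to WT library 2 was not the same for all members. It was 3.29 for Csf3r and 12.3 for S100a8, with a median of 6.58. Mpo and Elane together made up 14.6% of the counts of Mpo, Elane, S100a8 and S100a9 in WT library 1 (exact binomial 95% interval 14.4% to 14.9%) and 24.7% in WT library 2 (23.5% to 25.9%). These intervals cover counting error only and do not overlap. In WT library 3 the share was 12.9% (7.04% to 21.0%), and in KO libraries 1, 2 and 3 it was 23.9%, 13.3% and 10%.
At 4 weeks the primary granule pair gave 1 of 152 counts in WT and 0 of 207 in KO, and the exact 95% upper bound for KO was 1.77%. At 8 weeks the share was 9.06% of 342 counts in WT and 2.73% of 623 in KO, with single libraries between 0% and 21.1%. All 6 libraries of 20 months were at 10% or more, which no 4-week library reached, while 2 of the 4 WT libraries of 8 weeks did. No test was made of these shares.

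**Figure D3:**
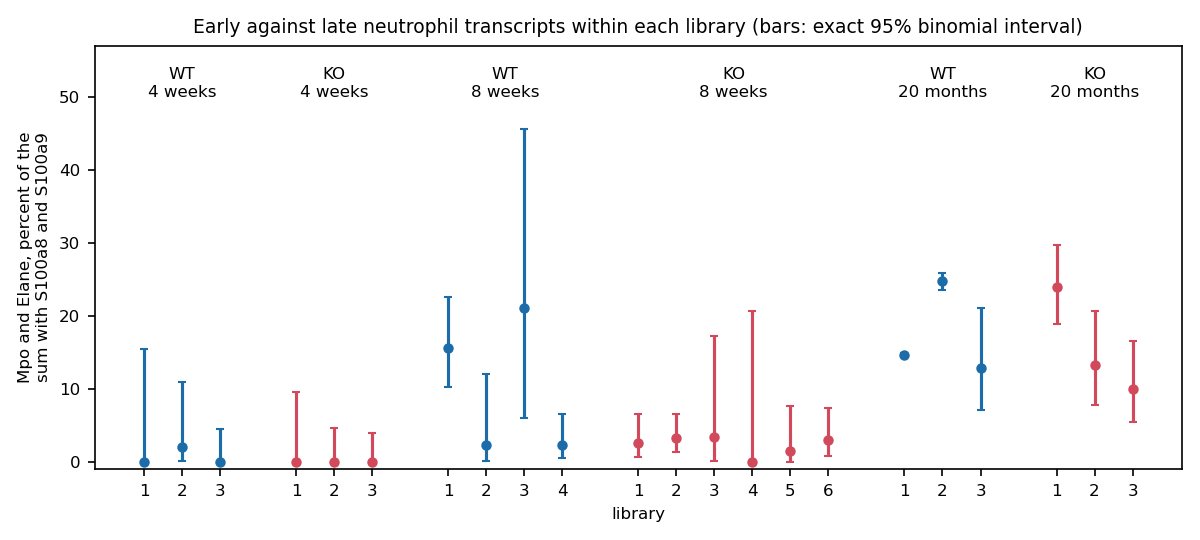
Share of Mpo and Elane among the counts of Mpo, Elane, S100a8 and S100a9 (percent) in each library, with exact 95% binomial intervals; WT in blue, KO in red. The 4-week libraries sit between 0% and 2.04% and the 20-month libraries between 10% and 24.7%.

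Other genes of the neutrophil stages showed the same 2 libraries. For genes at 1 CPM or more on average at 20 months, log2 CPM in WT library 1 and WT library 2 was set against the mean of the other 4 libraries of that age. That average included WT libraries 1 and 2, so a gene could pass through them alone. Camp, Ltf, Mpo, Elane, Retnlg and Cxcr2 did, with means of 0.335 to 0.839 CPM in the other 4. The filter favoured genes high in WT libraries 1 and 2, so the medians and orders below are partly set by it. The 10 members had medians of 8.35 and 5.42 on this log2 scale, where all 12677 genes had -0.01 and 0.01. The order WT library 1, then WT library 2, then the other 4 was found in 10 of 10 members and in 13% of all genes. WT libraries 1 and 2 were singled out by the members' own values, so the count for the members follows in part from that choice. These lists were chosen with results of these data known, and the values are a description.
The other promyelocyte and primary granule genes (8 genes) had medians of 6.53 and 3.67. Prtn3, which encodes proteinase 3, was at 187, 56.8 and 0.278 CPM in WT libraries 1, 2 and 3, and Ctsg, which encodes cathepsin G, at 127, 19.6 and 0.278. Cebpe, a transcription factor of granulocyte maturation, did not share the pattern, with 24.95, 17.8 and 22.7 CPM.
The other later granule genes (14) had medians of 5.58 and 2.95, and all 14 had that order. Lcn2, which encodes the iron-chelator binding protein lipocalin 2 and is also made by hepatocytes, was at 1755, 587 and 14.8 CPM. Hp (haptoglobin), largely a hepatocyte product, was at 10870, 6779 and 1820 CPM, and Lyz2 (lysozyme, also of macrophages) at 301, 118 and 51.9. The other mature neutrophil genes (23) had medians of 3.25 and 1.71, with 18 in that order. Lrg1, also made by hepatocytes, was at 1519, 1092 and 255 CPM, Wfdc21 at 1051, 747 and 627, and Msrb1 at 342, 472 and 485. Ly6g, the surface antigen used to sort mouse neutrophils and chosen after its values were seen, was at 7.98, 1.39 and 0.0556 CPM in WT, and had 0 counts in the 3 KO libraries.
Genes of neutrophil production, recruitment and adhesion (17) had medians of 1.58 and 0.56. Cxcl12, the chemokine that holds neutrophils in marrow, was at 266, 303 and 251 CPM in the WT libraries and did not share the order. Il1r1 (an interleukin 1 receptor) was at 306, 173 and 56.99 CPM and Vcam1 (an adhesion molecule) at 81.1, 41.5 and 22.7.

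Markers of other cells moved with the members to differing degrees. Monocyte genes (13) had medians of 3.13 and 1.65, cell division genes (20, a list added after the data were seen) 3.42 and 1.46, and blood progenitor and megakaryocyte genes (7) 2.22 and 1.04. Kupffer cell and macrophage genes (14) had 1.31 and 0.87. Lymphocyte and NK cell genes (11) had 0.35 and 0.64, erythroid genes (7) 0.11 and 1.5, liver endothelium genes (10) 0.02 and 0.06 and hepatocyte genes (12) -0.29 and -0.01. Of the 11 lymphocyte genes and the 7 erythroid genes, 0 had the order of the members.
Acute phase genes of the hepatocyte (26) had medians of 2.27 and 1.32, and their summed level was 180740 and 104510 CPM in WT libraries 1 and 2 against 19947 to 23282 CPM in the other 4. The summed monocyte level was 294 and 95.5 CPM against 22.7 to 57.9 CPM. The part of these cells and of the acute phase in the members' levels was not tested.

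**Figure D4:**
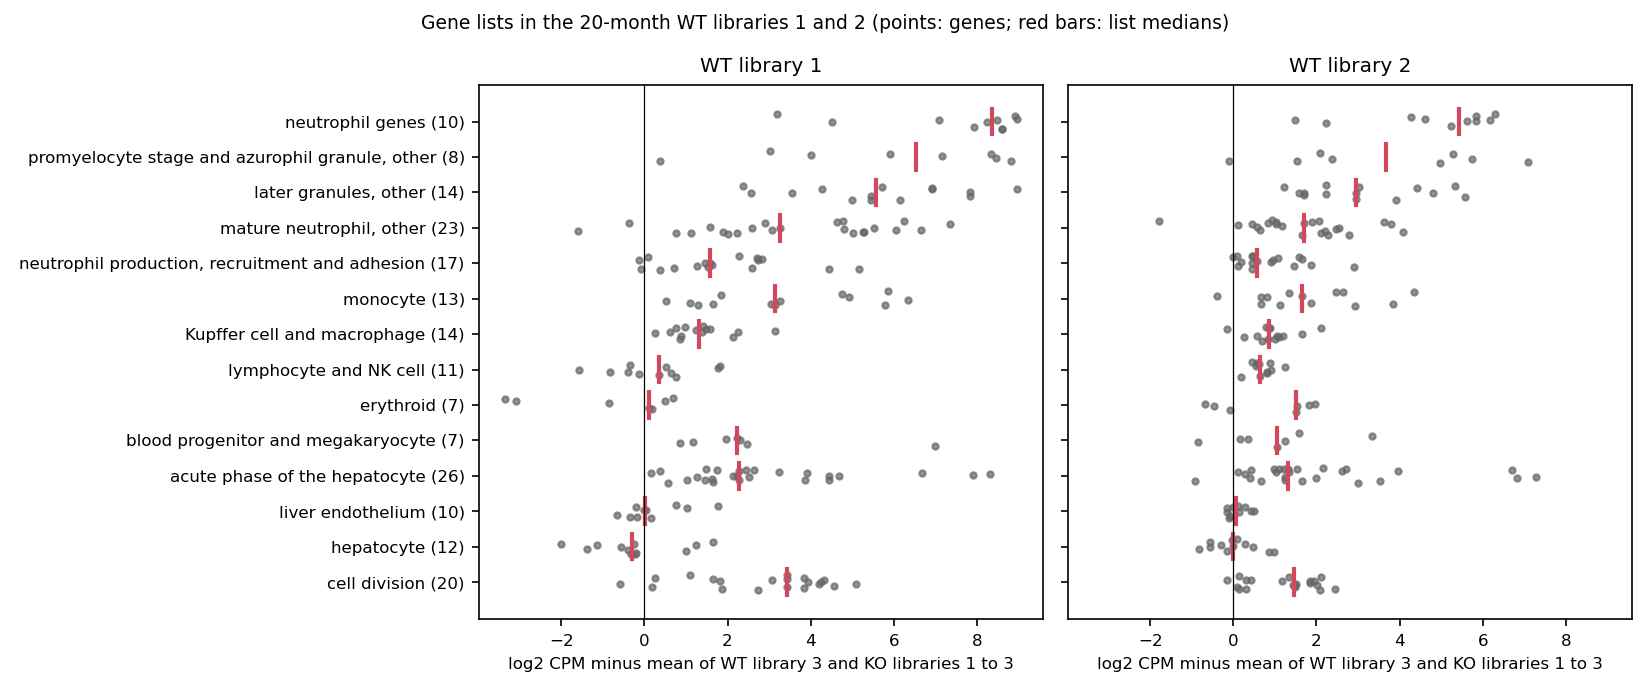
Difference of log2 CPM in WT library 1 (left) and WT library 2 (right) of 20 months from the mean of WT library 3 and the 3 KO libraries, for genes at 1 CPM or more; points are genes, red bars list medians, and numbers in brackets count genes. The members have the highest medians, 8.35 and 5.42, and hepatocyte and endothelial lists lie at about 0. The average behind the 1 CPM limit included WT libraries 1 and 2.

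KO and WT were compared at each age by edgeR's quasi-likelihood F-test with Benjamini-Hochberg adjustment over all genes tested. At 4 weeks 2 members passed the filter on low counts and 0 of them passed the threshold of 0.05, where 10.8% of all genes tested did. S100a9 differed by 0.86 on the log2 scale (SE 0.52, edgeR adjusted p = 0.309) and S100a8 by 0.46 (SE 0.48, edgeR adjusted p = 0.568), both higher in KO. Of the genes of production, recruitment and adhesion 13 were tested, with 1 higher and 1 lower in KO. Cxcl1, a chemokine that attracts neutrophils, was higher by 2.31 (SE 0.49, edgeR adjusted p = 0.0232), and Itgal, an integrin subunit of leukocytes, had -1.13 (SE 0.26, edgeR adjusted p = 0.0315). Of the other promyelocyte genes 1 was tested and was lower (Hk3, a hexokinase of myeloid cells, -1.31). Of the other later granule genes 0 of 4 passed, and of the other mature neutrophil genes 1 of 13 was lower (Msrb1, -1.31). Monocyte genes had 2 of 4 lower and macrophage genes 1 higher and 3 lower of 14 in that fit. Msrb1 had 630 to 2720 counts in the 4-week libraries. At 20 months it was at 342 CPM in WT library 1 and 485 in WT library 3, unlike the members. Which liver cells its RNA came from was not tested.
At 8 weeks 5 members were tested and 0 passed, against 0.0275% of all genes. Their log2 differences ran from -1.12 for Ngp (SE 0.84, edgeR adjusted p = 0.586) to 0.62 for S100a9 (SE 0.75, edgeR adjusted p = 0.731). None of the genes tested in the 4 other neutrophil lists passed either, 0 of 3, 10, 17 and 16.

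At 20 months all 10 members were tested and 0 passed the threshold; in that fit 0 of 13966 genes did, a background of 0%. The members had log2 differences from -1.93 for Csf3r (SE 0.83) to -7.36 for Ltf (SE 2.03), each with an edgeR adjusted p of 0.821. At an unadjusted p under 0.05, 9 members were lower in KO, against 3.87% of all genes. Of the other promyelocyte, later granule, mature neutrophil and recruitment genes 0 of 5, 12, 20 and 19 passed. The median log2 difference was -6.81 for the members and 0 for all genes tested.
These sizes rest on 2 libraries. Without WT libraries 1 and 2, an alternative chosen after seeing the data that leaves 1 WT library assumed to vary like the KO libraries, 9 of the 10 members had the opposite sign, from 0.15 for S100a9 to 1.90 for Cxcr2, and Elane had -0.29. None passed (edgeR adjusted p = 1). The call also turned on WT library 3: without it 8 members passed as lower in KO, where 0.436% of all genes did. With DESeq2 and all libraries 7 members passed as lower, against 0.286% of all genes. Ltf, for example, had an adjusted p of 0.0348 without WT library 3 and 0.0142 by DESeq2.

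**Figure D5:**
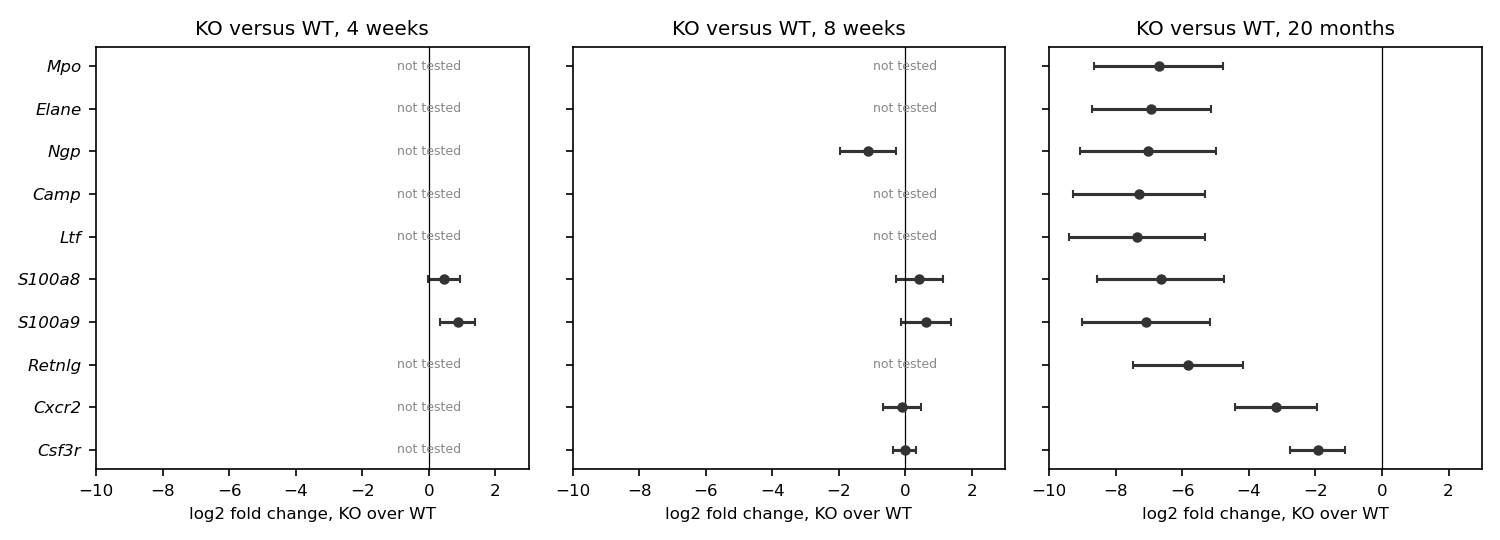
log2 fold change of KO over WT (points) with its SE (bars) from edgeR for each member at 3 ages; members that did not pass the filter on low counts are marked as not tested. The 20-month values lie between -7.36 and -1.93 with wide SEs, and none of the values shown passed the threshold.

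Whether the KO difference changed with age was tested in 1 edgeR fit of the 22 libraries. Of the 10 members 3 passed, against 1.62% of all genes: S100a9 (edgeR adjusted p = 0.0369), S100a8 (0.0457) and Retnlg (0.0477). Their KO differences at 20 months set against those at 4 weeks gave -7.94, -7.08 and -6.60 on the log2 scale. Of the 13 other later granule genes tested 4 passed, among them Chil3 (edgeR adjusted p = 0.0357) and Mmp8 (0.0408), a chitinase-like protein and a collagenase. Without WT libraries 1 and 2 of 20 months 0 members and 0 of those 13 genes passed, and the 3 members had adjusted p-values of 0.966, 0.995 and 0.940. The count ranged from 0 to 8 when single libraries were left out, with 8 without WT library 3 of 20 months. No share of all genes is given for these omissions, so the 8 cannot be set against one.

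Ages were compared within a genotype. The file names of the 8-week libraries carry another name and date stamp than those of 4 weeks and 20 months, so neighbouring ages and these file sets cannot be told apart. In WT, 5 members were tested between 8 and 4 weeks and 0 passed, where 53.2% of all genes did. S100a9 had the smallest adjusted p, with a log2 difference of -1.46 (SE 0.57, edgeR adjusted p = 0.0513). Between 20 months and 8 weeks 7 members were tested in WT and 5 rose, where 27.7% of all genes did. These were Mpo (log2 difference 8.86, SE 1.87), Ngp (8.79, SE 1.84), Ltf (8.42, SE 1.84), S100a9 (8.30, SE 1.77) and S100a8 (6.79, SE 1.68), with edgeR adjusted p-values of 0.00482 to 0.0103. Without WT libraries 1 and 2 of 20 months 0 members passed, and S100a8 was at -0.62 (edgeR adjusted p = 0.643). With all libraries the other promyelocyte genes rose in 4 of 4, the later granule genes in 7 of 10 and the mature neutrophil genes in 11 of 18. Recruitment genes had 3 higher and 2 lower of 16, where 27.7% of all genes tested were higher and 26.8% lower. These list counts include WT libraries 1 and 2. Counts of the lists without those 2, which leaves 1 WT library of that age, are not given. Cebpe rose by 2.49 with all libraries (SE 0.18, edgeR adjusted p = 4.2e-05).
In KO, 6 members were tested between 8 and 4 weeks and 0 passed, where 37.7% of all genes did. Between 20 months and 8 weeks 7 KO members were tested and 2 rose, against 23.4% of all genes. Ngp rose by 2.97 on the log2 scale (SE 0.89, edgeR adjusted p = 0.0208) and Ltf by 2.24 (SE 0.80, edgeR adjusted p = 0.0407), and with Mpo, which was not tested, they were the 3 members whose ages did not overlap (22.5% of all genes). KO library 1 of 20 months carried much of this: without it Ngp was at 1.93 (edgeR adjusted p = 0.143) and Ltf at 1.51 (0.208). That library had the highest value of its group for 8 of the 10 members. Of its reads 14.72% overlapped no counted feature, against 7.42% and 7.71% in the other KO libraries of that age.

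The genes whose pattern over the 22 libraries was most like that of the members were found after subtracting each group's mean from log2 CPM. The measure was Spearman's rho with the mean of the members, over libraries that differ in depth, each of which gives the values of all genes at its point, and is given with no p. The highest were Timd4 (rho 0.936), C1qb (0.922), Pfkfb4 (0.912), Vsig4 (0.907) and Lgmn (0.888), then Mmp8 (0.885), Fermt3 (0.881), Ripor3 (0.881), Itgb2 (0.879) and Chil3 (0.871). Timd4, C1qb and Vsig4 are of the Kupffer cell and macrophage list, and Mmp8 and Chil3 of the later granule list. Itgb2 is of the recruitment and adhesion list. The part of macrophages in the members' levels was not tested. Without WT libraries 1 and 2 of 20 months the 10 genes of highest rho had rho of 0.820 to 0.925 over 20 libraries. The WT library of that age that remained was then alone in its group. Subtracting the group mean gave it the same value for every gene, so it carried no information. Lcn2, of the later granule list, had a rho of 0.732, and 0.629 without WT libraries 1 and 2 of 20 months. The globin genes Hbb-bs and Hba-a1 had 0.440 and 0.392, and 0.395 and 0.405 without them. The acute phase genes Saa1, Saa2 and Saa3 had 0.391, 0.427 and 0.237, and 0.104, 0.155 and -0.074 without them.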

How the data were processed

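The deposited values were read counts per Ensembl gene, 1 table for each of 22 liver libraries; the submitters' processing notes name HISAT2 2.0.4, HTSeq 0.6.1p1 and the build GRCm38. Annotation release and strand setting are not given in the sources used here, so reads of overlapping genes cannot be assigned with certainty. Reads that overlapped no counted feature and ambiguous reads (6.13% to 17.78% and 3.8% to 7.3% of reads) were left out of library sizes. Samples were grouped by the genotype and age in the labels. Library pairs within a group differed by a chi-square of at least 8.34 per degree of freedom, so none were treated as duplicates.

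Groups were compared in R 4.3.3 with edgeR 4.0.16 (filterByExpr, TMM, quasi-likelihood F-test, 2-sided, Benjamini-Hochberg over all genes tested, threshold 0.05); the SE is the log2 fold change divided by the square root of F. CPM used TMM factors of all 22 libraries, log2 CPM a prior count of 2, and the limit of a count of 0 was 3 counts. The scripts were tested on simulated data. All 10 members are named in every comparison; from other lists the rule takes up to 2 genes of smallest adjusted p past the threshold, and up to 3 of highest mean CPM from each neutrophil list. The members and the 13 further lists (213 symbols, 1 not matched) were chosen with earlier results of these data known, and 1 list was added after seeing the data. Promoters are from RefSeq, GRCm38.p6. Alternatives were RLE factors, library totals, no filter, DESeq2 1.42.0, robust dispersions, 1 fit of all libraries, a replicate block and leaving out libraries.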

Additional observations from a re-analysis of the deposited data

Results flagged for a closer look

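Elane at 8 weeks in KO stood out because 1 library, at 0.105 CPM, was apart from the other 5, which had 0 counts: its gap to the nearest was the whole range of the group (ratio 1). It rests on 2 counts. The criterion is meant to pick about 1 in 20 groups by chance, a rate for continuous values that does not describe 5 libraries at 0 beside 1 with 2 counts. For 3 members the KO difference was not the same at the 3 ages by the joint edgeR test, with adjusted p of 0.0369 for S100a9, 0.0457 for S100a8 and 0.0477 for Retnlg. None of the 3 passed without WT libraries 1 and 2 of 20 months.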

How the results depend on the processing

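Of the alternative values for single members, 719 kept their side of the threshold and, outside the joint test, which has no direction, their direction. A further 64 lost the call, 37 gained it and 35 changed sign. Without WT libraries 1 and 2 of 20 months (chosen after seeing the data), KO against WT at 20 months gave 0.83 for S100a8, 0.15 for S100a9, 1.40 for Ngp, 0.53 for Camp, 1.11 for Ltf, 1.52 for Mpo, 0.50 for Retnlg, 1.90 for Cxcr2 and 0.51 for Csf3r (log2). In WT, 20 months against 8 weeks then gave -0.62 for S100a8, -2.06 for Cxcr2 and -0.59 for Csf3r, with 0 members higher, and the joint test of ages called 0 members and 33 genes. With library totals alone Csf3r was at 0.02 between KO ages of 20 months and 8 weeks.

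With single libraries left out, KO against WT at 8 weeks ranged from -0.33 to 0.21 for Cxcr2 and -0.22 to 0.33 for Csf3r, and Ltf in WT between 8 and 4 weeks from -1.73 to 0.27. In KO, Cxcr2 ranged from -0.82 to 0.19 between 8 and 4 weeks; between 20 months and 8 weeks Cxcr2 ranged from -0.25 to 0.18, S100a8 from -0.49 to 0.14 and Csf3r from -0.52 to 0.18.
Counts of members under the same omissions were 0 to 8 lower in KO at 20 months, 0 to 8 in the joint test and 0 to 2 lower in WT at 8 against 4 weeks. At 20 months against 8 weeks they were 4 to 10 higher in WT and 0 to 2 higher in KO. No share of all genes is given for the age comparisons under these omissions. With every library, 25.7% of all genes were lower in WT at 8 against 4 weeks. At 20 months against 8 weeks 27.7% were higher in WT and 23.4% in KO. Counts of all genes were 184 to 2012 between genotypes at 4 weeks (1200 with every library), 1 to 5 (4) at 8 weeks, 0 to 71 (0) at 20 months and 26 to 1081 in the joint test (258).

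DESeq2 called 7 members and 49 genes at 20 months, 110 genes at 8 weeks, 5 members and 1223 genes in the joint test, 1 member lower in WT at 8 against 4 weeks, and 10 (WT) and 4 (KO) members higher at 20 months against 8 weeks. With no filter on low counts these last were 9 and 4, with 1 member lower in WT at 8 against 4 weeks and 2048 genes between genotypes at 4 weeks. RLE factors also called 1 member lower in WT at 8 against 4 weeks, and robust dispersions called 0 members in the joint test. Between ages no share of all genes is given for these settings, so the member counts there cannot be set against one. The cause of these changes was not tested.

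With the replicate block, KO against WT gave 537 genes at 4 weeks, 0 at 8 weeks and 0 at 20 months, with 0 members at each age. Libraries of the same number deviated together by a correlation of -0.04 to 0.02 in the youngest set and -0.28 to 0.08 in the middle set. In the oldest set it was 0.06 to 0.40. With so few libraries per group these values cannot settle whether the numbers pair samples, and the main fits did not pair them. Between genotypes 8 members did not pass the filter on low counts at 4 weeks and 5 at 8 weeks.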
